A study of Mus musculus with 30 samples.

Results

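HPCLSK cells carrying a retroviral vector for wild-type STAT3 were compared with HPCLSK cells carrying the empty vector. HPCLSK is a mouse haematopoietic stem and progenitor cell line, given in the labels with strain C57BL/6N, and the empty vector is named after its dsRed marker. The 6 libraries were chosen by their titles, 3 with STAT3 and 3 with empty vector, out of 18 RNA libraries and 30 samples in the series. The other RNA libraries hold HPCLSK with the STAT3 Y640F form and the line HPC7, strain 129SV, with the same 3 vectors, 3 libraries a group. The cells of every group received no treatment. Their Iscove's medium held stem cell factor and fetal calf serum, and the HPCLSK plates were coated with agarose. The comparison asks what added wild-type STAT3 does to the transcriptome of this line. The series text calls the 3 libraries of a group technical replicates, so the p-values measure the spread between these libraries and not between separate transductions. A clone or a separate culture for each library is not given in the labels.

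STAT3 is a transcription factor that cytokine receptors switch on. Receptors of the interleukin 6 family, which share the subunit gp130, and the receptor for granulocyte colony-stimulating factor bring Janus kinases to STAT3, which then pairs through phosphorylated tyrosine, enters the nucleus and binds the palindrome TTCNNNGAA near its target genes. Its target Socs3 codes for an inhibitor that closes the loop at the receptor. In bone marrow, STAT3 is known above all for its part in the production and release of neutrophils.

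The values are counts of reads per gene. The STAT3 libraries held 12297501, 20996915 and 9537258 counts and the empty vector libraries 13263597, 22154763 and 17069553. Levels are given as CPM, counts per 1000000 counts after scaling by the trimmed mean of M values, with the standard deviation over 3 libraries where a mean is given. Of 50686 genes listed, 12552 had enough counts to be tested. A gene is said to have risen or fallen where edgeR's quasi-likelihood test gave a Benjamini-Hochberg adjusted p under 0.05 over these genes, and a fold of at least 2 is a second, stricter rule. Log2 fold changes are STAT3 over empty vector, with their standard errors. One library stands apart within its group. Divided by its degrees of freedom, the chi-square of the counts of empty vector library 1 against library 2 was 11.5 and against library 3 was 8.66, while libraries 2 and 3 gave 2.61 and the pairs of STAT3 libraries 5.17 to 6.81. Results that rest on it are given below with and without it, in a fit that also leaves out library 1 of the Y640F group, which stands apart in the same way.

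The label of the cells was checked first. Genes of haematopoietic progenitors were abundant in all 6 libraries. Cd34, a surface glycoprotein of progenitors, stood at 1637, 1787 and 1969.6 CPM with STAT3 and 2264, 2251 and 2403 CPM with empty vector. Lhx2, a LIM homeobox factor known to immortalize mouse haematopoietic progenitors, stood at 1290.3, 1288 and 1129.9 CPM with STAT3 and 1191, 1285 and 1336 CPM with empty vector. Defining genes of other lineages were at 0 in all 6 libraries: Cd3e and Cd8a of T cells, Pax5 and Ebf1 of B cells, Col1a2 and Cdh5 of stromal and endothelial cells, and Hba-a1, Hbb-bs and Alas2 of erythroid cells. A listed 0 does not by itself show that a gene was silent: 6 of 13 mitochondrially encoded genes, among them mt-Co2, mt-Co3 and mt-Atp6, which every cell uses, were also at 0 in all 6 libraries. Globin genes such as Hba-a1 have near-identical copies, and how reads shared by copies were counted is not given in the sources used here. Of the members listed in the files, 26 of 30 T and natural killer cell genes, 15 of 22 B-lymphoid genes, 20 of 25 stromal genes and 18 of 31 erythroid genes had under 30 counts over the 6 libraries.

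With STAT3, 967 genes rose (7.70% of the genes tested) and 799 fell (6.37%), 1766 in all (14.1%). A fold of at least 2 was reached by 352 of the risers (2.80%) and 225 of the fallers (1.79%), 577 in all (4.60%). The median log2 fold change over all genes tested was 0. A fold of at least 4 was reached by 138 risers and 83 fallers, and a fold of at least 8 by 45 and 35. Of 29 gene lists, the granulocyte list had the highest share of members that rose, and the list of MHC class II and interferon-gamma genes the highest share that fell. The 3 STAT3 libraries lay wholly above the 3 empty vector libraries for 18.7% of the genes tested and wholly below them for 18.3%. With STAT3 library 1 left out, 602 genes rose and 454 fell, and with empty vector library 3 left out, 620 rose and 509 fell. Without empty vector library 1 alone, 693 rose and 569 fell. With Y640F library 1, which enters the fit but not the comparison, left out as well, 1323 rose and 1080 fell.

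**Figure D1:**
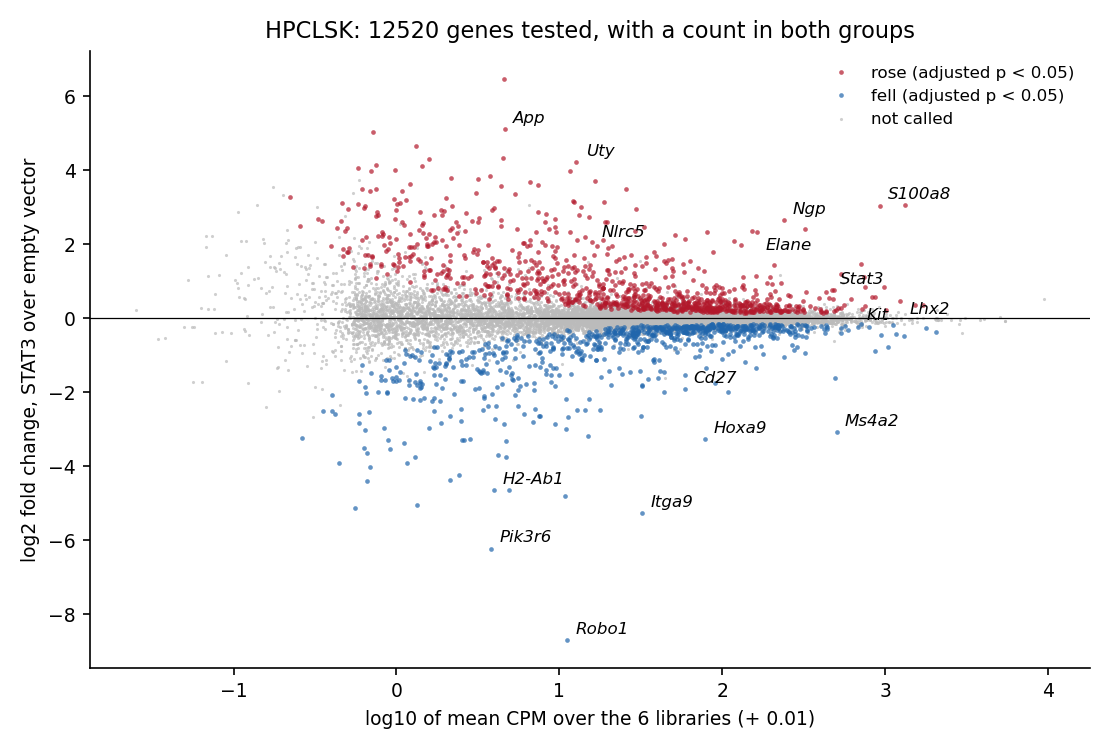
Log2 fold change of STAT3 over empty vector in HPCLSK against the mean CPM of the 6 libraries on a log10 scale, for the 12520 tested genes with a count in both groups. Red points rose and blue points fell at an adjusted p under 0.05, grey points passed no test, and the labelled genes run from App, with a log2 fold change of 5.12, to Robo1, with -8.68.

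The vector gene itself came first. Stat3 (ENSMUSG00000004040.16, GRCm38 chromosome 11 at 100885098 to 100939540) stood at 593, 549 and 632 CPM with STAT3, against 359, 335 and 352 CPM with empty vector. The groups did not overlap, and Stat3 RNA rose by a log2 fold change of 0.76 ± 0.06 (adjusted p = 2.37e-05), under a fold of 2. Reads of the vector and of the cell's own gene cannot be told apart in these counts.

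Genes of the signalling chain changed about as often as all genes. Of 26 JAK-STAT components and regulators, all tested, 3 rose (11.5%) and 1 fell (3.85%), against 7.70% and 6.37% of all genes, and with 1 library left out 1 to 2 rose and 0 to 1 fell. The list had a median log2 fold change of 0.04. Il6st, which codes for the shared receptor subunit gp130, was the member with the largest rise. It stood at 12.5, 17.2 and 11.9 CPM with STAT3, against 4.10, 5.04 and 3.92 CPM with empty vector. All STAT3 libraries were above all empty vector libraries (log2 fold change 1.68 ± 0.18, adjusted p = 1.67e-04). The ubiquitin ligase gene Cbl rose by 0.25 and the phosphatase gene Ptpn6, whose product dampens cytokine receptors, rose by 0.34 on the log2 scale. Socs5, of the suppressor of cytokine signalling family, fell by 0.47. The calls of Ptpn6 (adjusted p = 0.0504 without empty vector library 3 and 0.0523 without STAT3 library 2) and of Socs5 (0.0704 to 0.0979 without empty vector library 1 or 3 or STAT3 library 2) were lost with 1 library left out. The kinase genes Jak1, Jak2, Jak3 and Tyk2 had log2 fold changes of -0.16, 0.02, -0.07 and 0.11, none past the test. Stat5a, at 172, 175 and 180.3 CPM with STAT3 and 215, 180.0 and 191 CPM with empty vector, and Stat5b, with a log2 fold change of 0.08 ± 0.06, were not called.

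Genes known as STAT3 or cytokine-response targets rose in part. Of 45 tested members of that list, 16 rose (35.6%) and 0 fell in edgeR, against 7.70% and 6.37% of all genes. Of the risers, 6 rose at least 2-fold. DESeq2 gave 18 and 0, and 0 members were lower at an unadjusted p under 0.05. The median log2 fold change was 0.19. Of the 16, S100a8, S100a9 and Lcn2 are also granulocyte genes. Fewer members rose with 1 library left out: 7 without empty vector library 3, 8 without STAT3 library 2, 10 without empty vector library 2 and 10 without STAT3 library 1. Without empty vector library 1 alone, 13 rose and 0 fell, and without Y640F library 1 as well, 22 rose and 1 fell. Socs2, a suppressor of cytokine signalling known to restrain growth hormone signals, stood at 3.13, 5.21 and 5.30 CPM with STAT3, against 1.10, 1.23 and 1.59 CPM with empty vector (log2 fold change 1.79 ± 0.25, adjusted p = 8.00e-04). Bcl6, a transcriptional repressor, stood at 22.7, 18.1 and 20.3 CPM with STAT3, against 10.3, 13.6 and 14.3 CPM with empty vector (0.65 ± 0.14, adjusted p = 0.00903). The libraries of both genes did not overlap between the groups. Cebpb and Cebpd, C/EBP factors of myeloid cells and acute-phase responses, rose by 0.92 and 0.27 on the log2 scale, and the activator protein 1 genes Jun and Fosl2 rose by 0.88 and 0.47.

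The classical feedback targets moved little. Socs3 stood at 34.9, 43.5 and 40.8 CPM with STAT3, against 34.0, 28.0 and 22.3 CPM with empty vector, a log2 fold change of 0.51 ± 0.14 (adjusted p = 0.0372). Its call was lost without empty vector library 2 or 3 or STAT3 library 2 or 3 (adjusted p = 0.0922, 0.113, 0.139 and 0.0924). Bcl3, of the inhibitor of kappa B family, rose by 0.36 (adjusted p = 0.0462), and it lost its call with any of 5 libraries left out, empty vector 1, 2 and 3 and STAT3 1 and 2 (adjusted p = 0.0554 to 0.185). The survival kinase gene Pim1 had a log2 fold change of 0.22 ± 0.11 (adjusted p = 0.226). Its 3 STAT3 libraries, at 284, 298 and 284 CPM, were all above the empty vector libraries, at 280.1, 233 and 229 CPM. Without empty vector library 1 alone Pim1 was not called (log2 fold change 0.32, adjusted p = 0.112). With Y640F library 1 left out as well, its change of 0.32 passed the test (adjusted p = 0.00101). Cish, a classical STAT5 target that codes for another suppressor of cytokine signalling, stood at 4.58, 5.21 and 4.58 CPM with STAT3 and 4.76, 4.95 and 4.72 CPM with empty vector, and these overlapped.

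The STAT palindrome was looked for in the promoters of these genes, since STAT3 is known to bind it. The sequences run 5′ to 3′ on the strand of the gene, from 250 bases before to 50 bases after a RefSeq start, with RefSeq coordinates of GRCm38.p6, and capitals mark each match to TTCNNNGAA, which reads the same on both strands. The target promoters of Socs3 (chr11:117969317-117969616, minus strand), which rose, of Bcl6 (chr16:23981234-23981533, minus strand), which rose and holds 3 matches in this window, and of Cish (chr9:107296409-107296708, plus strand), which did not change detectably, are shown with that of Chil3 (chr3:106167515-106167814, minus strand), a granulocyte gene that rose.
Socs3: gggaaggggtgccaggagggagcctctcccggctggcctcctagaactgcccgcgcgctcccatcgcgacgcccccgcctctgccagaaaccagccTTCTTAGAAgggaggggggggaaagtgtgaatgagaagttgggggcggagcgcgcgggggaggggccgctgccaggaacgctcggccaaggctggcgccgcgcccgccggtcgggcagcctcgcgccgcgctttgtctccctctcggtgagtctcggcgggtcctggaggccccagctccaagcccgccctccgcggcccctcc
Bcl6: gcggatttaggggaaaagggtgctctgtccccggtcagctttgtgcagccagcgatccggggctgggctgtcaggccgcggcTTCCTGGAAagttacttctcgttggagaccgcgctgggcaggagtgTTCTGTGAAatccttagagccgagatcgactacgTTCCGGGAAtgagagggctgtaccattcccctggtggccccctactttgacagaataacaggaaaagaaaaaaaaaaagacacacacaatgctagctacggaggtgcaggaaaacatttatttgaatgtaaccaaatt
Cish: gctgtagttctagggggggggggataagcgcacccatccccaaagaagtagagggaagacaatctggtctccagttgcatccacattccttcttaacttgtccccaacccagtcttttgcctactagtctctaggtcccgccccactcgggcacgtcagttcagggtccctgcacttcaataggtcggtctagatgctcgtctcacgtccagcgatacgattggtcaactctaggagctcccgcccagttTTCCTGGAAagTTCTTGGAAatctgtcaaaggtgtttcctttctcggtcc
Chil3: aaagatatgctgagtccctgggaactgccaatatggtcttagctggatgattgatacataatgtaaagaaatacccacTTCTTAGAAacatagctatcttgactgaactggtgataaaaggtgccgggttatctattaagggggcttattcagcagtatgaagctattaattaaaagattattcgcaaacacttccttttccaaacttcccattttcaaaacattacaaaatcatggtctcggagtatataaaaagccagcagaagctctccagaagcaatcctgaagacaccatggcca
The match in Socs3 begins 154 bases before the start and the match in Chil3 172 bases before it, and both spell TTCTTAGAA. The first match in Bcl6 begins 168 bases before the start. Promoters of genes that fell also held matches, among the named genes those of Irf8, with 2, and of Oas1a, Psmb8 and Polr1b, with 1 each. A promoter was at hand for 9387 of the genes tested, and 8.38% of these genes held at least 1 match. The share was 11.0% of genes that rose at least 2-fold (28 of 254 with a promoter) and 8.28% of genes that fell at least 2-fold (14 of 169). Of 38 tested members of the STAT3 target list with a promoter, 10 held a match, 3 of them among the 13 that rose. Of 22 granulocyte genes with a promoter, 3 held a match. These shares were not tested, and a match is not evidence of binding.

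Genes of maturing neutrophils rose together. Of 30 granulocyte genes, 27 were tested, 17 rose and 0 fell in edgeR, against 7.70% and 6.37% of all genes. DESeq2 also gave 17 and 0, and 0 members were lower at an unadjusted p under 0.05. Of the risers, 13 reached a fold of 2, against 2.80% of all genes, and the list's median log2 fold change was 1.18, against 0 over all genes. Without empty vector library 1 the median was 0.90, and 14 rose, 10 of them at least 2-fold. With Y640F library 1 left out as well, the median was 0.90 and 12 rose at least 2-fold. Summed over the 27 genes, the list made up 26188, 22509.5 and 17401 CPM of the STAT3 libraries and 9871, 14957 and 12292 CPM of the empty vector libraries, with library 1 lowest in the empty vector group and library 3 lowest in the STAT3 group. In bulk RNA, a larger share of maturing cells and more of this RNA in each cell cannot be told apart.

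S100a9 and S100a8 code for the calcium-binding pair that makes up calprotectin, a major cytosolic protein of neutrophils. S100a9 stood at 3205, 2358 and 1545 CPM with STAT3, against 126, 444 and 285 CPM with empty vector (log2 fold change 3.05 ± 0.40, adjusted p = 6.48e-04). S100a8 stood at 2207, 1645 and 1105 CPM with STAT3, against 101, 295 and 203 CPM with empty vector (3.05 ± 0.35, adjusted p = 2.85e-04). Both varied more than 2-fold within the empty vector group, and the groups still did not overlap. Secondary granule genes followed. Ngp, the neutrophilic granule protein, stood at 606, 385 and 256 CPM with STAT3, against 24.0, 106 and 64.8 CPM with empty vector (2.66 ± 0.43, adjusted p = 0.00235). Lcn2, which codes for the iron-scavenging lipocalin 2, stood at 316, 273 and 173 CPM with STAT3, against 24.8, 68.8 and 53.02 CPM with empty vector (2.36 ± 0.31, adjusted p = 6.19e-04). Lactoferrin, cathelicidin, ficolin B and chitinase-like 3 genes moved the same way: Ltf rose by 2.14, Camp by 1.97, Fcnb by 2.33 and Chil3 by 2.42 on the log2 scale.

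Primary granule genes, which neutrophil precursors express earlier, did not move as one. Elane, the gene of neutrophil elastase, rose to 446, 199.7 and 172 CPM with STAT3, against 52.0, 65.1 and 43.0 CPM with empty vector (2.35 ± 0.42, adjusted p = 0.00399). Mpo, the gene of myeloperoxidase and among the most abundant messages here, stood at 12612, 11390.4 and 9503 CPM with STAT3 and 6156, 9493 and 7724 CPM with empty vector, a log2 fold change of 0.52 ± 0.25 (adjusted p = 0.214). All STAT3 libraries of Mpo were above all empty vector libraries, narrowly at the nearest pair, and the change did not pass the test. Prtn3 and Ctsg, the genes of proteinase 3 and cathepsin G, overlapped between the groups. The factor gene Cebpe, needed for secondary granules, rose to 36.6, 20.2 and 24.3 CPM with STAT3, against 6.15, 8.11 and 6.08 CPM with empty vector (1.97 ± 0.27, adjusted p = 7.31e-04). Cebpa, which acts at the entry to the lineage, stood at 133 ± 9.63 CPM with STAT3 and 123 ± 1.66 CPM with empty vector (SD, n = 3 for each group) and was not called. Csf3r, the receptor for granulocyte colony-stimulating factor, was not called either, at 533 ± 37.1 CPM with STAT3 and 456 ± 51.9 CPM with empty vector. Cxcr2, the chemokine receptor that draws neutrophils out of the marrow, rose to 30.2, 16.2 and 24.6 CPM with STAT3, against 4.10, 5.83 and 4.89 CPM with empty vector (2.21 ± 0.22, adjusted p = 1.02e-04). The number of granulocyte genes that rose was 11 without empty vector library 3, 11 without STAT3 library 1, 8 of them at least 2-fold in either case, and 19 without empty vector library 1 and Y640F library 1.

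**Figure D2:**
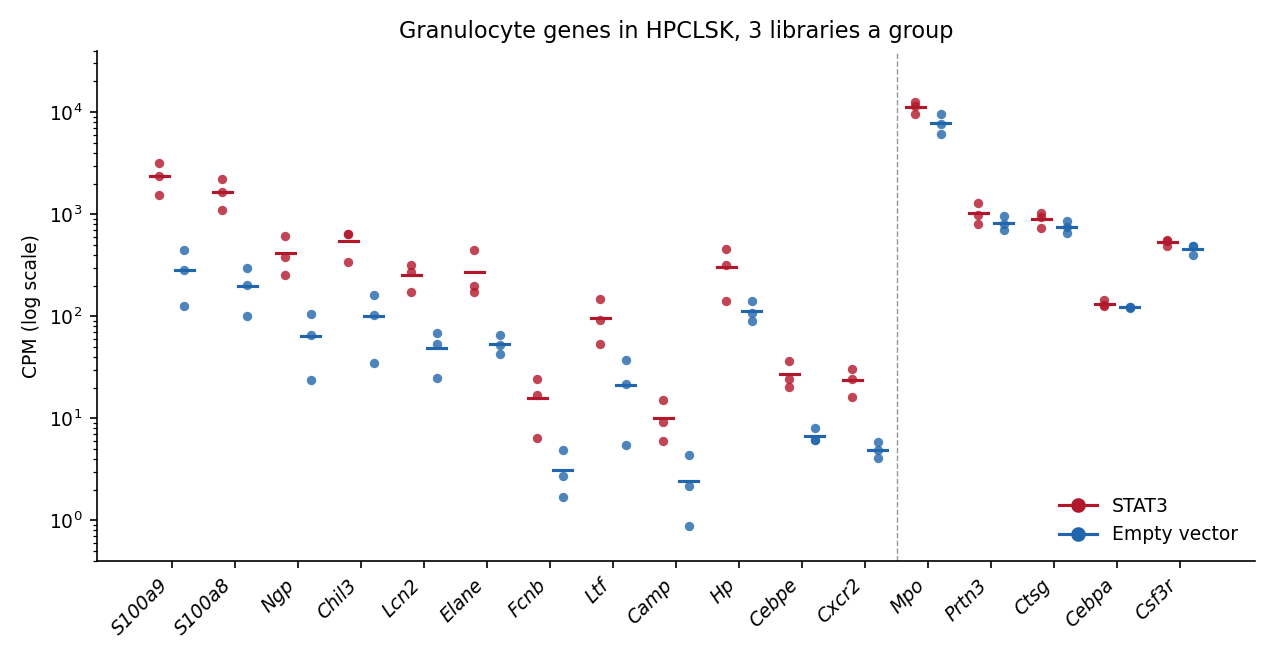
CPM on a log scale of 17 granulocyte genes in HPCLSK, with STAT3 in red and empty vector in blue, each point 1 library and each bar the mean of 3. Left of the dashed line are genes that rose, such as S100a9 with 3205, 2358 and 1545 CPM against 126, 444 and 285 CPM, and right of it Mpo, Prtn3, Ctsg, Cebpa and Csf3r, which were not called.

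Monocyte and dendritic cell genes were mixed: of 22 tested, 3 rose and 4 fell, against 7.70% and 6.37% of all genes. Without empty vector library 3 or STAT3 library 1, 1 rose and 2 fell, and without empty vector library 2, 3 rose and 2 fell. Ly6c2, a surface antigen of monocytes that granulocyte precursors also carry, rose to 237, 224 and 116 CPM with STAT3, against 26.2, 60.2 and 48.5 CPM with empty vector (2.08 ± 0.30, adjusted p = 0.00102). Ccr2, the receptor that brings monocytes out of the marrow, fell to 80.1, 106 and 84.7 CPM with STAT3, against 251, 229.8 and 212 CPM with empty vector (-1.35 ± 0.11, adjusted p = 2.28e-05). The lysozyme gene Lyz2 rose by 0.84, and Irf8, a factor that favours monocytes and dendritic cells over granulocytes, fell by 1.13. Lyz2 lost its call without empty vector library 1 or 3 or STAT3 library 1 or 2 (adjusted p = 0.0644 to 0.0735), and Irf8 without empty vector library 2 or 3 or STAT3 library 1 (0.0524 to 0.0859). The macrophage growth factor receptor gene Csf1r overlapped between the groups, with 63.3, 123 and 34.4 CPM in the STAT3 libraries and 55.4, 83.5 and 68.7 CPM in those with empty vector.

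Single genes of the mast cell, megakaryocyte and erythroid branches fell steeply. The counts of list members below stand against 7.70% that rose and 6.37% that fell of all genes tested. Of the mast cell list 7.14% rose and 14.3% fell, and of the megakaryocyte list 8.70% rose and 21.7% fell. The share that rose in both lists was thus near that of all genes. The list of mast cells, basophils and eosinophils had 14 tested genes, of which 1 rose, Mcpt8, a basophil protease gene, by 0.71, and 2 fell, Ms4a2 and the interleukin 5 receptor gene Il5ra. Whichever of the 6 libraries was left out, 1 fell, since Il5ra lost its call (adjusted p = 0.0725 to 0.142). Without empty vector library 1, 2 rose. Ms4a2, which codes for the beta chain of the high-affinity IgE receptor, fell to 104, 85.6 and 134 CPM with STAT3, against 1177, 738 and 784 CPM with empty vector (-3.07 ± 0.27, adjusted p = 4.63e-05). Its partner Fcer1a, the alpha chain gene, stood at 249, 216 and 304 CPM with STAT3 and 342, 185 and 222 CPM with empty vector, which overlapped, and the mast cell carboxypeptidase gene Cpa3 had a log2 fold change of -0.39 ± 0.14 (adjusted p = 0.0825). Of 23 megakaryocyte genes, 2 rose and 5 fell, and with any of the 6 libraries left out 0 to 1 rose and 3 to 5 fell. Itga2b, the integrin alpha IIb gene of platelets and early progenitors, fell to 579, 611 and 635 CPM with STAT3, against 1387, 966 and 1024 CPM with empty vector (-0.89 ± 0.18, adjusted p = 0.00711). The thrombin receptor gene F2r fell by 0.78 and Selp, the gene of P-selectin, by 2.57, while the platelet factor 4 gene Pf4 overlapped between the groups. Of 11 tested erythroid genes, 2 rose and 2 fell. With any library but STAT3 library 3 left out 1 rose, the call of Cd36 being lost (adjusted p = 0.0503 to 0.130), 3 fell without empty vector library 2 and 4 fell without STAT3 library 3. Among the fallers was Car2, the gene of carbonic anhydrase 2, at 11.5, 16.1 and 14.9 CPM with STAT3, against 75.8, 35.8 and 40.1 CPM with empty vector (-1.81 ± 0.26, adjusted p = 0.00110). Empty vector library 1 was highest in its group for Ms4a2, Itga2b, Selp and Car2. Of the lists of cells that should be absent, 2 rose and 2 fell of 7 B-lymphoid genes tested (1 rose without empty vector library 1 or 2 or STAT3 library 3, and 1 fell without STAT3 library 2), 1 rose of 4 T and natural killer cell genes and 1 rose of 6 stromal genes. The T cell list's riser was Id2, an inhibitor of basic helix-loop-helix factors that myeloid cells also use, at 11.1, 10.1 and 10.6 CPM with STAT3 against 2.05, 3.33 and 2.44 CPM with empty vector, and the stromal list's was the smooth muscle actin gene Acta2, at 1.53, 2.30 and 2.65 CPM with STAT3 against 0.0732, 0.702 and 0.682 CPM with empty vector. The part of other cells in these values was not tested.

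The stem cell programme changed in both directions, with more of the 2-fold changes downward. Of 39 tested stem and progenitor genes, 8 rose and 11 fell, and 7 of the fallers and 2 of the risers passed a fold of 2. The shares, 20.5% and 28.2%, stood against 7.70% and 6.37% of all genes. The median log2 fold change was -0.23, and -0.07 without empty vector library 1, with Y640F library 1 kept or left out. Hoxa9, a homeobox gene that sustains self-renewal and falls as progenitors mature, showed the steepest drop of the list. It stood at 14.0, 15.6 and 14.4 CPM with STAT3, against 153, 136 and 135 CPM with empty vector (log2 fold change -3.26 ± 0.19, adjusted p = 5.58e-06). The groups lay far apart with little spread inside either. Its neighbour Hoxa5 fell by 1.40, and Hoxa7 had a log2 fold change of -0.63 ± 0.20 (adjusted p = 0.0610).

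Several regulators of stem cells fell beside Hoxa9. Hlf, a factor that keeps stem cells quiescent, stood at 39.4, 36.4 and 47.8 CPM with STAT3, against 152, 126 and 136 CPM with empty vector (-1.76 ± 0.16, adjusted p = 5.75e-05). Mecom, the gene of the stem cell factor EVI1, stood at 2.01, 2.49 and 2.85 CPM with STAT3, against 10.8, 5.92 and 6.88 CPM with empty vector (-1.67 ± 0.28, adjusted p = 0.00294). Procr, the endothelial protein C receptor that marks long-term stem cells, fell by 1.53. Cd27, a tumour necrosis factor receptor of multipotent progenitors, fell to 24.9, 22.96 and 26.2 CPM with STAT3, against 97.3, 88.9 and 92.2 CPM with empty vector (-1.92 ± 0.18, adjusted p = 7.27e-05). Flt3, the cytokine receptor of lymphoid-primed progenitors, fell by 1.12 and the RNA-binding regulator gene Msi2 by 0.86. Hoxb4 and Prom1, genes known from stem cells, rose at low levels, Hoxb4 by 2.23 and Prom1, which codes for CD133, by 2.07, the call of Prom1 being lost without STAT3 library 1 (adjusted p = 0.0533). Much of the progenitor core did not move detectably. Kit, the receptor for stem cell factor, stood at 610.4, 643 and 652 CPM with STAT3 and 816, 679 and 699 CPM with empty vector (-0.20 ± 0.09, adjusted p = 0.174), and Lhx2, Myb, Runx1, Meis1 and Gata2 overlapped between the groups. Cd34 itself fell by 0.36. Whichever of the 6 libraries was left out, 3 to 5 members rose and 9 to 12 fell, and without empty vector library 1 and Y640F library 1, 10 rose and 15 fell.

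**Figure D3:**
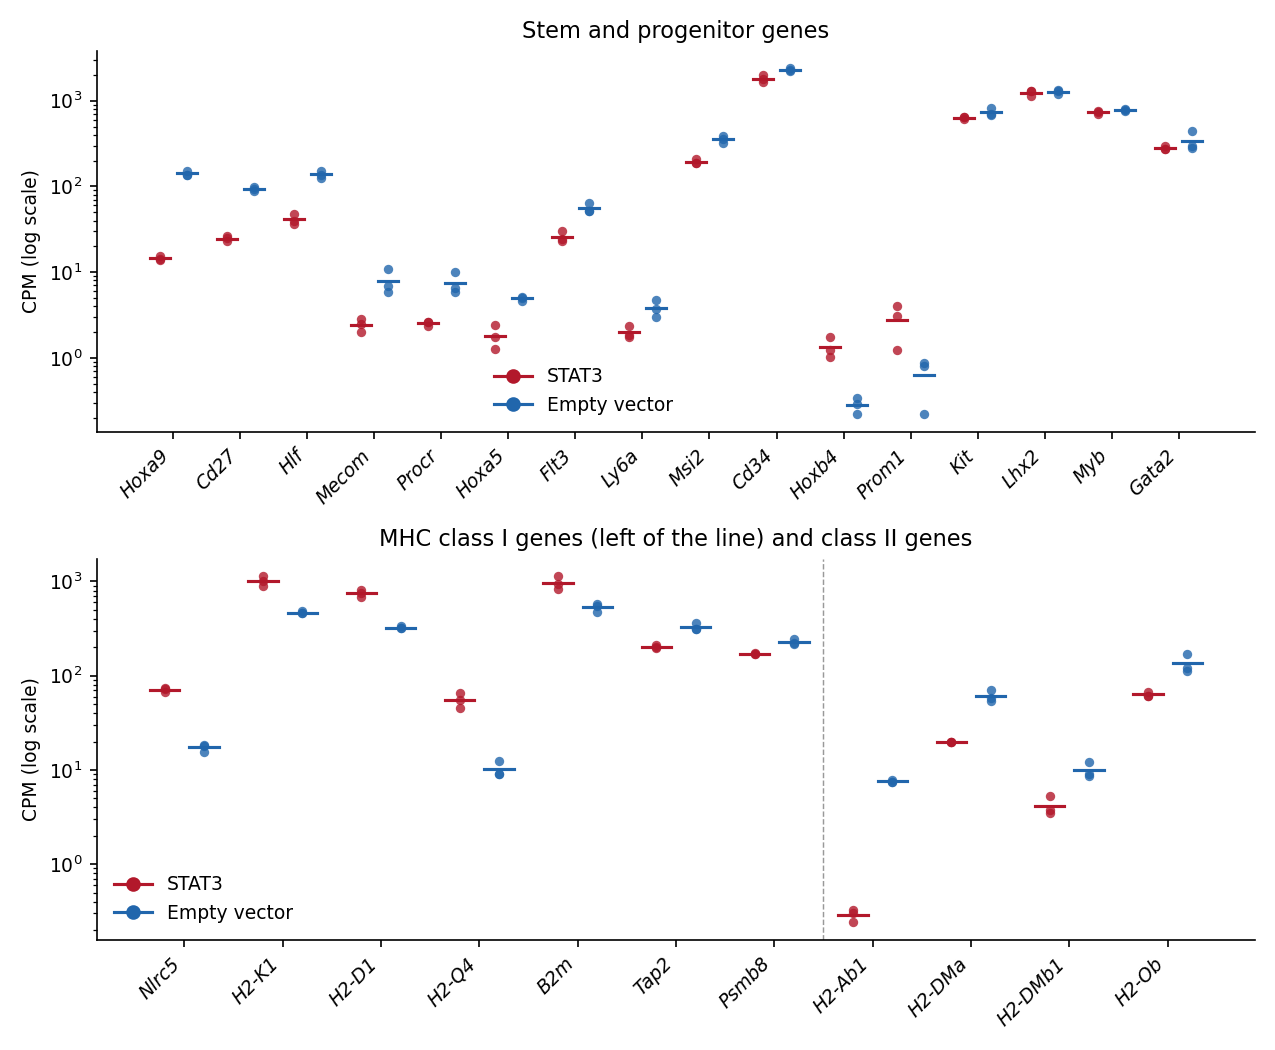
CPM on a log scale of stem and progenitor genes (upper panel) and of MHC class I and class II genes (lower panel, parted by a dashed line), with STAT3 in red and empty vector in blue, each point 1 library and each bar the mean of 3. Hoxa9 stands at 14.0, 15.6 and 14.4 CPM with STAT3 against 153, 136 and 135 CPM with empty vector, Kit and Lhx2 were not called, and the class I genes Nlrc5 and H2-Q4 are higher with STAT3 while all 4 class II genes drawn are lower. The class II gene Cd74, which overlapped between the groups, is not drawn.

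Antigen presentation genes moved in both directions, and the difference between the classes was not tested. MHC class I molecules show peptides of the cell's own proteins and are found on nearly all cells, and class II molecules show peptides taken up from outside and mark antigen-presenting cells. Of 21 class I genes, all tested, 5 rose (23.8%) and 4 fell (19.05%), against 7.70% and 6.37% of all genes, with 4 risers and 0 fallers past a fold of 2 and a median log2 fold change of 0.01. Nlrc5, the transactivator of class I genes, rose to 73.1, 67.2 and 72.0 CPM with STAT3, against 15.6, 18.2 and 18.2 CPM with empty vector (2.02 ± 0.08, adjusted p = 3.59e-07). H2-K1 rose to 1004, 1139.6 and 899 CPM with STAT3, against 480.0, 462 and 459 CPM with empty vector (1.12 ± 0.08, adjusted p = 1.85e-05). The other heavy chain gene H2-D1 rose by 1.21 and the light chain gene B2m by 0.86, so that heavy chains, light chain and transactivator rose together. H2-Q4, a nonclassical class I gene, rose by 2.47. Class I genes are similar in sequence, and how reads shared by several were counted is not given in the sources used here. The genes of peptide supply did not follow: the transporter gene Tap2 fell to 209, 197 and 201 CPM with STAT3, against 363, 315 and 316 CPM with empty vector (-0.71 ± 0.09, adjusted p = 5.24e-04), and the immunoproteasome gene Psmb8 fell by 0.42, while Tap1 had a log2 fold change of 0.07 ± 0.08. The number of class I genes that fell was 2 without empty vector library 1 or 2 or STAT3 library 1.

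Several class II genes fell. Of 20 tested class II and interferon-gamma genes, 0 rose and 7 fell (35.0%) in edgeR, against 7.70% and 6.37% of all genes. Of the 7, 5 fell at least 2-fold, and 5 to 7 members fell when any 1 library was left out. In other edgeR fits 1 member rose: without STAT3 library 3, without empty vector library 1 and Y640F library 1, over only the 6 libraries and over all 18. With no count filter 2 rose. DESeq2 gave 1 and 7, and 2 members were higher at an unadjusted p under 0.05. H2-Ab1, a class II beta chain gene, was at 0.241, 0.329 and 0.306 CPM with STAT3, against 7.90, 7.50 and 7.39 CPM with empty vector (-4.64 ± 0.23, adjusted p = 1.32e-06). H2-DMa, which codes for part of the peptide exchanger of class II, fell to 19.9, 19.9 and 19.7 CPM with STAT3, against 70.0, 54.4 and 57.3 CPM with empty vector (-1.61 ± 0.14, adjusted p = 3.76e-05). H2-DMb1, a beta chain gene of the same exchanger, fell by 1.26, and H2-Ob, a chain gene of its inhibitor, by 1.09. Cd74, the invariant chain gene, was low in both groups and overlapped between them, at 1.21, 3.15 and 0.713 CPM with STAT3 and 1.02, 1.10 and 1.08 CPM with empty vector. Of the interferon-gamma genes of the list, Gbp2 fell by 0.39 and Gbp3 by 0.61, and Irf8, which is in this list too, also fell. The other 13 of the 20 tested members were not called, and the list's median log2 fold change was -0.14.

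Type I interferon-stimulated genes were lower on balance. Of 39 tested, 2 rose (5.13%) and 11 fell (28.2%), against 7.70% and 6.37% of all genes. Of the fallers, 2 fell at least 2-fold, and the list's median log2 fold change was -0.32 against 0 over all genes. Summed over the list, they made up 2173, 2370.3 and 2107 CPM with STAT3 and 2889, 2942 and 2918 CPM with empty vector, which did not overlap. Ly6e, which restricts viral entry, fell to 789, 832 and 691 CPM with STAT3, against 1439, 1258 and 1275 CPM with empty vector (-0.78 ± 0.09, adjusted p = 3.66e-04). Oas1a, a sensor of double-stranded RNA, fell to 1.77, 3.85 and 2.95 CPM with STAT3, against 7.83, 12.8 and 12.8 CPM with empty vector (-1.92 ± 0.25, adjusted p = 6.15e-04). Lgals3bp and Slfn2 rose, by 0.65 and 1.15, the call of Slfn2 being lost without empty vector library 3 (adjusted p = 0.0513) or STAT3 library 2 (0.0816). At least 2-fold, 1 to 6 fell with 1 library left out. The number that fell at all was 3 without empty vector library 2 or 3, 4 without STAT3 library 3, 5 without STAT3 library 1, 18 without empty vector library 1, and 23 without that library and Y640F library 1.

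Receptors and inflammatory genes changed one by one, in both directions. Of 43 tested cytokine and chemokine receptors, 10 rose (23.3%) and 7 fell (16.3%), against 7.70% and 6.37% of all genes, and 6 rose without empty vector library 2 or STAT3 library 1. Csf2ra, the receptor chain for granulocyte-macrophage colony-stimulating factor, rose to 47.7, 43.8 and 43.3 CPM with STAT3, against 21.5, 24.5 and 23.5 CPM with empty vector (0.95 ± 0.10, adjusted p = 1.93e-04). Il1r1, the interleukin 1 receptor, rose by 1.39 and the chemokine receptor gene Ccr1 by 1.03, while Il1rap, the accessory chain that the interleukin 1 receptor needs, fell to 17.2, 17.0 and 16.4 CPM with STAT3, against 56.9, 40.9 and 38.5 CPM with empty vector (-1.42 ± 0.14, adjusted p = 8.63e-05). Il11ra1, which pairs with gp130, fell by 1.41, and Il10rb, shared by receptors of the interleukin 10 family, fell by 0.79. Of 32 tested chemokine, cytokine and NF-kB genes, 5 rose (15.6%) and 1 fell, with 2 to 3 rising when empty vector library 2 or 3 or STAT3 library 1 or 2 was left out. The interleukin 1 beta gene Il1b rose to 3.38, 3.29 and 3.67 CPM with STAT3, against 1.83, 1.49 and 1.48 CPM with empty vector (1.11 ± 0.26, adjusted p = 0.0177), the NF-kB inhibitor gene Nfkbia rose by 0.89 and the chemokine gene Ccl6 by 1.33. The gene of transforming growth factor beta 1, Tgfb1, fell by 0.25, a call lost without empty vector library 1, 2 or 3 or STAT3 library 1 or 3 (adjusted p = 0.0655 to 0.112). Of 35 tested immediate-early and heat-shock genes, 5 rose (14.3%) and 1 fell (2 without empty vector library 2). Fosb, an activator protein 1 gene, rose by 1.52, and Dusp4, which codes for a phosphatase of MAP kinases, fell to 1.85, 2.49 and 2.04 CPM with STAT3, against 14.0, 10.7 and 11.3 CPM with empty vector (-2.45 ± 0.30, adjusted p = 4.00e-04). Without empty vector library 1 and Y640F library 1, 12 of 36 tested genes of that list rose, and with 1 library left out 1 to 6 did, 1 without empty vector library 2 or 3, 2 without STAT3 library 2 and 3 without STAT3 library 1 or 3.

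Lists of growth and housekeeping genes lay on either side of the shares over all genes, 7.70% that rose and 6.37% that fell. Over the 9 HPCLSK libraries, edgeR and DESeq2 called 0 of 40 cytosolic ribosomal protein genes, of which 0 were higher and 2 lower at an unadjusted p under 0.05. In edgeR, 1 fell in a fit of only the 6 libraries and 2 fell in a fit of all 18. Both tools also called 0 of 7 tested mitochondrially encoded genes over the 9 libraries, of which 1 was higher and 1 lower at that unadjusted p. In edgeR, 1 of these rose without empty vector library 2, at least 2-fold, 2 rose with no count filter and 1 fell without empty vector library 1 and Y640F library 1. Of 37 tested cell-cycle genes, 5 rose (13.5%) and 1 fell, with 2 to 3 rising when empty vector library 1, 2 or 3 or STAT3 library 1 or 2 was left out and 0 falling without empty vector library 2 or 3 or STAT3 library 1. E2f2, a factor that drives S-phase genes, rose to 38.8, 32.9 and 27.6 CPM with STAT3, against 9.66, 12.98 and 11.3 CPM with empty vector (1.54 ± 0.14, adjusted p = 5.56e-05), and Rrm2, the ribonucleotide reductase gene, rose by 0.43. Of 32 MYC and ribosome-biogenesis genes 3 fell, of 37 oxidative phosphorylation subunits 2 fell, of 28 p53 targets 1 fell, of 25 apoptosis genes 1 rose and 1 fell, and of 34 glycolysis and hypoxia genes 4 rose (11.8%). Vegfa, the gene of vascular endothelial growth factor A, was among the risers of the last list, at 51.1, 53.7 and 44.6 CPM with STAT3 against 33.7, 32.7 and 34.0 CPM with empty vector (0.58 ± 0.08, adjusted p = 0.00114). Of 33 genes of the unfolded protein and amino acid stress responses 3 rose (9.09%) and 1 fell, of 7 tested histone genes 1 rose, Hist1h4i, and of 8 tested sex-linked genes 1 rose, Uty. With 1 library left out, 1 to 3 of the MYC genes fell, 1 to 2 of the oxidative phosphorylation genes and of the p53 targets fell, and 0 to 2 of the unfolded protein genes rose, with 0 without STAT3 library 1 or 2. The apoptosis list's riser, Bmf, lost its call without any library but STAT3 library 3 (adjusted p = 0.0602 to 0.144), and the histone list had 0 risers without empty vector library 1 or 3 or STAT3 library 2 or 3.

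Cholesterol and fatty acid genes show how much 1 library can weigh. Of 35 tested, 1 rose (2.86%) and 0 fell in both edgeR and DESeq2, against 7.70% and 6.37% of all genes in edgeR. At an unadjusted p under 0.05, 3 members were higher and 3 lower. The list summed to 3933, 4203 and 3857 CPM in the STAT3 libraries and 5818, 3625 and 3564 CPM in the empty vector libraries, where library 1 was the highest of all 6 and libraries 2 and 3 were below all STAT3 libraries. In the Y640F group library 1 was instead the lowest, at 5021 CPM against 7153 and 7488 CPM. Scd2, a fatty acid desaturase gene, stood at 371, 442 and 341 CPM with STAT3 and 1142, 334 and 287 CPM with empty vector. The number that rose was 4 without empty vector library 1 and 19 without it and Y640F library 1, and the list's median log2 fold change was 0.28 without both, against -0.01 with all libraries.

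**Figure D4:**
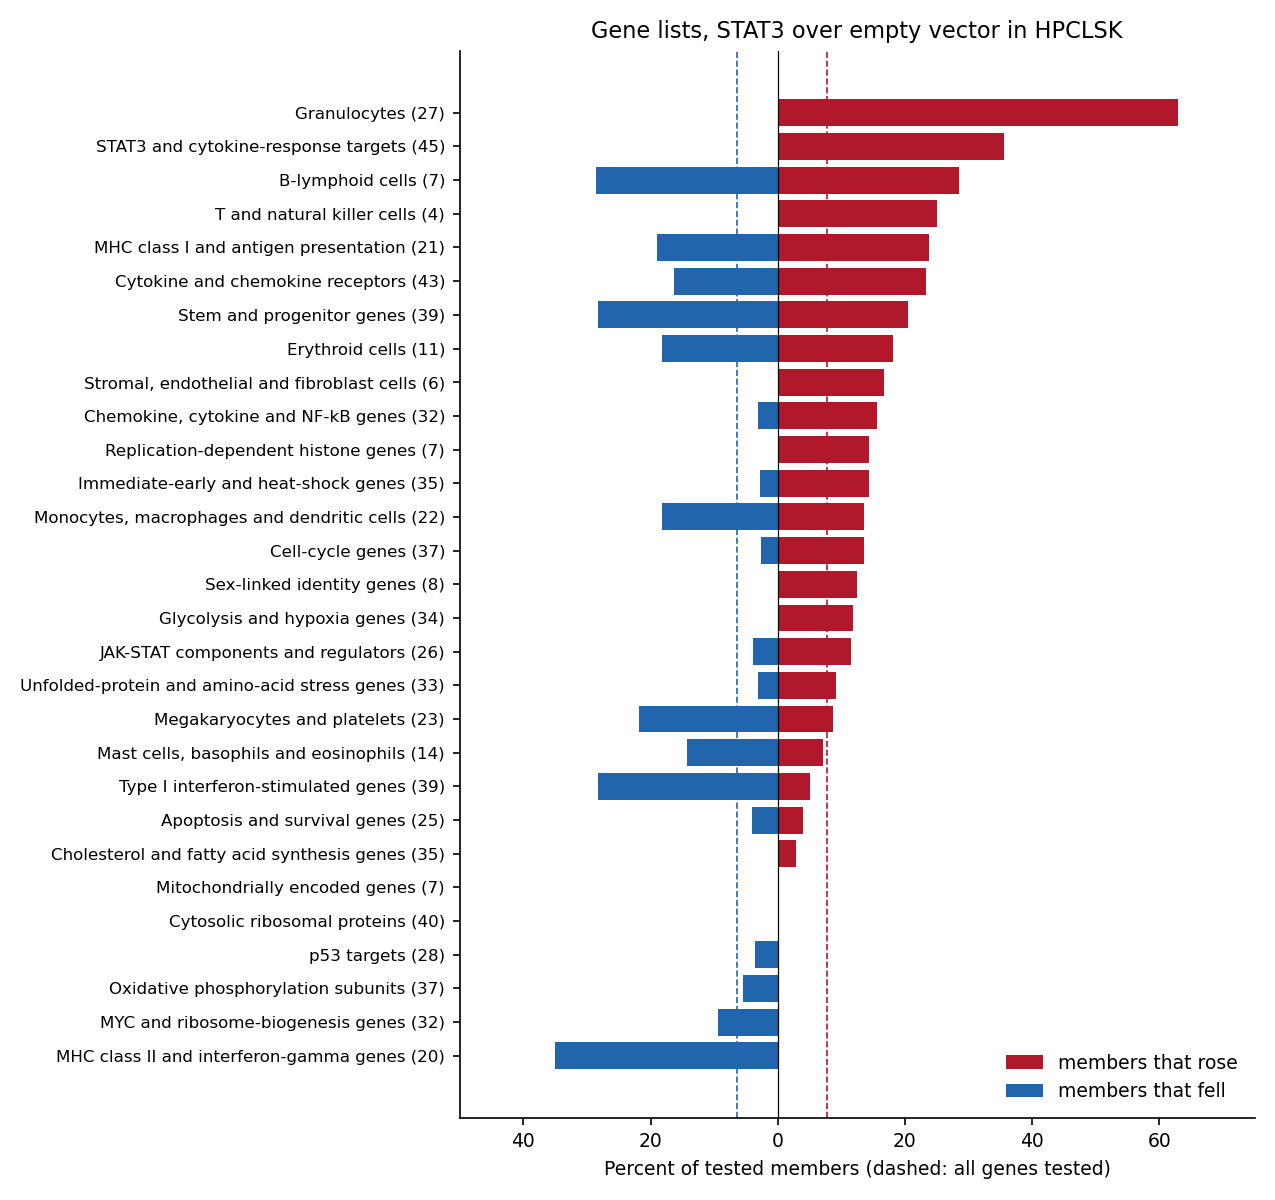
Share of the tested members of each of 29 gene lists that rose (red, to the right) and fell (blue, to the left) with STAT3 over empty vector in HPCLSK, in percent, with the number of members tested in brackets. Dashed lines mark all genes tested, 7.70% that rose and 6.37% that fell. The granulocyte list extends farthest to the right and the class II list farthest to the left.

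The largest changes lay mostly outside the blood lineage lists. App, the amyloid precursor protein gene, had one of the large rises. It stood at 11.6, 10.9 and 4.48 CPM with STAT3, against 0.146, 0.219 and 0.398 CPM with empty vector (5.12 ± 0.49, adjusted p = 9.58e-05). Uty, the Y-linked relative of the histone demethylase gene Utx, stood at 25.6, 22.1 and 23.8 CPM with STAT3, against 2.20, 0.877 and 0.966 CPM with empty vector (4.23 ± 0.25, adjusted p = 5.58e-06). Other Y-linked genes were not called, with log2 fold changes of -0.05 for Ddx3y, 0.01 for Kdm5d and 0.08 for Eif2s3y. The DM-domain factor gene Dmrta2 rose by 4.33, the actin-binding synaptopodin gene Synpo by 3.86, the Wnt receptor gene Fzd2 by 3.76 and the melanoma antigen family gene Maged1 by 3.72 on the log2 scale.

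Among genes with a count in both groups, Robo1 fell the most. This receptor for the guidance cue Slit had 2 counts over the 3 STAT3 libraries and 1146 over the 3 empty vector libraries, a ratio of 468 in favour of empty vector with a 95% exact binomial counting interval of 129 to 3866. Pik3r6, a regulatory subunit gene of phosphoinositide 3-kinase gamma, stood at 0, 0.0939 and 0.204 CPM with STAT3, against 8.78, 6.93 and 6.71 CPM with empty vector (-6.22 ± 0.55, adjusted p = 5.31e-05). Itga9, the integrin alpha 9 gene, stood at 1.45, 2.07 and 1.02 CPM with STAT3, against 94.2, 44.2 and 51.3 CPM with empty vector (-5.26 ± 0.38, adjusted p = 1.55e-05). Cdh9, a cadherin gene, stood at 0.643, 0.470 and 1.32 CPM with STAT3, against 26.6, 16.1 and 19.5 CPM with empty vector (-4.81 ± 0.32, adjusted p = 1.06e-05). In each of these the groups lay far apart, and empty vector library 1 was the highest. The desmosome gene Dsp fell by 4.63, the lipid phosphatase gene Plpp2 by 3.76 and the secreted Wnt antagonist gene Sfrp2 by 3.68.

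A few genes had no count at all in 1 group. Hnmt, which codes for the enzyme that inactivates histamine, had 0 counts over the STAT3 libraries and 157 over the empty vector libraries, at least 42.7-fold lower with the floor set at 3 counts for the 3 libraries together. The antisense transcript Nespas of the Gnas locus had 0 against 104 counts (at least 28.3-fold lower), Asxl3, a Polycomb-related gene, 0 against 60 (at least 16.3-fold lower), and Cdh1, the gene of E-cadherin, 0 against 58 (at least 15.8-fold lower). In the other direction, Arhgef28, which codes for a guanine nucleotide exchange factor, had 67 counts with STAT3 and 0 with empty vector, at least 27.4-fold higher. The changes of each passed the test, and intervals and floors cover counting error only.

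The Y640F form, a change in the SH2 domain known to activate STAT3, was set against the same 3 empty vector libraries, so its values are given only side by side and the difference between the forms was not tested here. Stat3 RNA itself stood at 1882 ± 44.5 CPM with Y640F, 591 ± 41.5 CPM with STAT3 and 349 ± 12.4 CPM with empty vector (SD, n = 3 for each group, here and below). Hoxa9 was low with both forms, at 19.8 ± 6.86 CPM with Y640F and 14.6 ± 0.838 CPM with STAT3, against 142 ± 10.1 CPM with empty vector. Ms4a2 stood at 114 ± 37.8 CPM with Y640F and 108 ± 24.3 CPM with STAT3, against 899.8 ± 241 CPM with empty vector. H2-Ab1 was also low with both forms, at 0.282 ± 0.0958 CPM with Y640F and 0.292 ± 0.0454 CPM with STAT3, against 7.60 ± 0.272 CPM with empty vector. The granulocyte genes did not all lie on the same side. S100a9 stood at 4261 ± 701 CPM with Y640F and 2369 ± 829.9 CPM with STAT3, against 285 ± 159 CPM with empty vector. Ngp stood at 24.8 ± 3.15 CPM with Y640F and 416 ± 177 CPM with STAT3, against 64.8 ± 40.8 CPM with empty vector. Camp stood at 0.667 ± 0.273 CPM with Y640F and 10.1 ± 4.66 CPM with STAT3, against 2.46 ± 1.75 CPM with empty vector. Ngp and Camp were thus above the empty vector mean with STAT3 and below it with Y640F. Uty was at 0.267 ± 0.106 CPM with Y640F and 23.8 ± 1.78 CPM with STAT3, against 1.35 ± 0.737 CPM with empty vector.

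The same vector pair in HPC7 gave another picture. STAT3 over empty vector changed 916 of 12683 tested genes in HPC7 at least 2-fold (7.22%), 230 up (1.81%) and 686 down (5.41%). The difference of the log2 fold changes, HPCLSK minus HPC7, was tested in all 18 libraries and was past an adjusted p of 0.05 and a size of 1 for 1146 of 13891 genes (8.25%). All 9 HPCLSK libraries come from 1 sequencing lane and all 9 HPC7 libraries from another, per the file headers, so line and lane cannot be told apart. Stat3 RNA in HPC7 stood at 1005 ± 22.6 CPM with STAT3 and 227 ± 10.1 CPM with empty vector. That is a log2 fold change of 2.15 ± 0.04, against 0.76 ± 0.06 in HPCLSK. Line and the size of the Stat3 rise cannot be told apart either. Of 82 named genes with a count in both groups, 62 were also tested in HPC7, and the difference was called for 36, with 24 higher and 12 lower in HPCLSK. Of these, 19 rose in HPCLSK and fell in HPC7 and 4 fell in HPCLSK and rose in HPC7, both at an adjusted p under 0.05. Among the 19 are S100a8, Slfn2, Vegfa and Ccl6, which had means under 1 CPM in both HPC7 groups. Apart from Stat3, Socs3, Pim1, Bcl3 and Cish, the named genes were chosen for their change in HPCLSK, which is part of this difference. The share of 36 among 62 is therefore no measure of how often the lines differ.

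Nlrc5 differed most. Its log2 fold change was 2.02 ± 0.08 in HPCLSK and -7.14 ± 0.40 in HPC7, where it stood at 0.0643 ± 0.0612 CPM with STAT3 and 9.15 ± 1.85 CPM with empty vector (difference 9.13 ± 0.36, adjusted p = 1.21e-12). The class I transactivator thus rose with STAT3 in HPCLSK and was all but lost with it in HPC7. Uty rose in HPCLSK and fell in HPC7, to 3.13 ± 0.105 CPM with STAT3 against 31.1 ± 3.26 CPM with empty vector there (difference 7.55 ± 0.23, adjusted p = 3.02e-14). Il6st changed by 1.68 ± 0.18 in HPCLSK and -1.49 ± 0.15 in HPC7 (difference 3.17 ± 0.25, adjusted p = 2.00e-08), and Cxcr2 by 2.21 ± 0.22 and -0.51 ± 0.07 (difference 2.70 ± 0.23, adjusted p = 5.34e-08). Itga2b and Car2 went the other way: Itga2b changed by -0.89 ± 0.18 in HPCLSK and 1.03 ± 0.04 in HPC7 (difference -1.93 ± 0.19, adjusted p = 4.18e-07), and Car2 by -1.81 ± 0.26 and 0.76 ± 0.04 (difference -2.56 ± 0.26, adjusted p = 4.56e-07). Ccr2 fell by 1.35 in HPCLSK and by 1.42 in HPC7, with a difference of 0.07 ± 0.17 that was not called (adjusted p = 0.831). Hoxa9, Cd27, Robo1 and App had too few counts in HPC7 to be tested there.

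**Figure D5:**
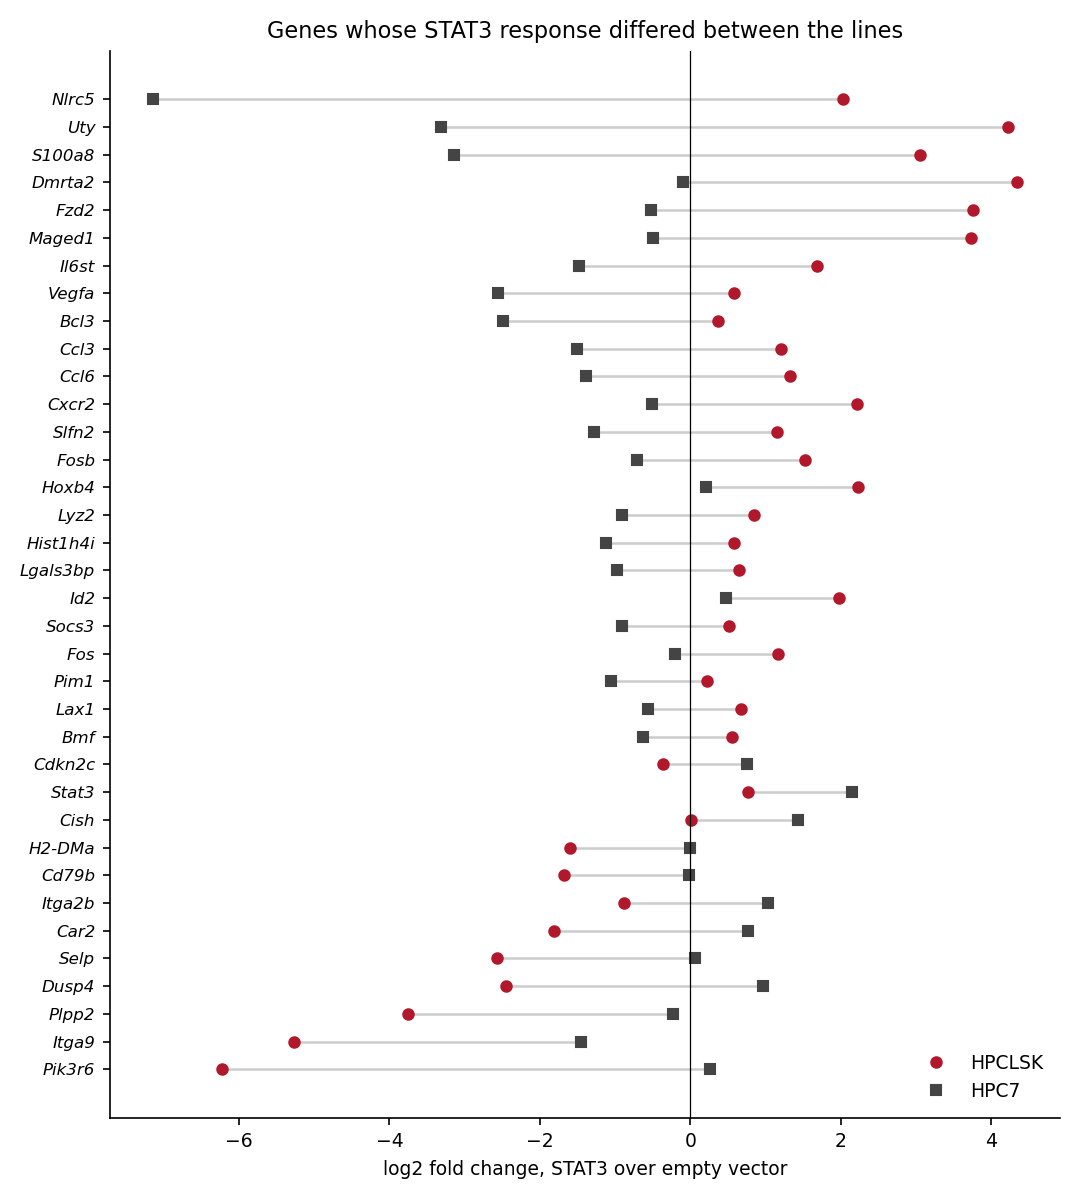
Log2 fold change of STAT3 over empty vector in HPCLSK (red circles) and HPC7 (dark squares) for the 36 named genes whose difference between the lines was called, ordered by that difference. Nlrc5 leads with 2.02 in HPCLSK and -7.14 in HPC7, and Pik3r6 closes the order with -6.22 and 0.26.

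Changed genes lay on every numbered chromosome and on X, and Uty was the 1 called gene of Y. On chromosome 1, 96 of 761 tested genes rose and 35 fell, with a median log2 fold change of 0.08. The other numbered chromosomes and X had medians between -0.03 and 0.02.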

How the data were processed

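The authors deposited raw read counts per gene for 18 mRNA libraries. Per the file headers they were made with featureCounts 1.5.1 over exons at strand setting 2, on STAR alignments, with GENCODE M13. The submitters' processing notes name GRCm38 (mm10) and Trimmomatic, without versions. Reads were single-end, 50 bp. The library kit is named differently in the series text and the sample protocols. Symbols were matched by gene ID for 45737 genes with the version and 4639 without it, 310 had none and 136 shared one. 3 counts in 1 library correspond to 0.143 to 0.315 CPM with STAT3 and 0.135 to 0.226 CPM with empty vector. The 12 chromatin samples were not analysed here. A few genes that the rule names are not reported here.

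STAT3 was set against empty vector with edgeR 4.0.16 (R 4.3.3): filterByExpr, TMM, glmQLFit and glmQLFTest over the 9 HPCLSK libraries (6 residual degrees of freedom), with Benjamini-Hochberg adjustment over 12552 genes. The line difference used all 18 libraries. DESeq2 1.42.0, other scalings and filters, other sets of libraries, glmTreat against a fold of 1.2 and each library left out in turn served as alternatives. On simulated data for this comparison (12305 genes), 90% of genes changed 2-fold and 99% changed 4-fold were recovered, and 7.35% of calls were false. The samples, the 29 gene lists and the tests were chosen with earlier results of these data known.

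Named genes are Stat3, Socs3, Pim1, Bcl3 and Cish, the 8 largest risers and 8 largest fallers among genes with a fold of at least 2, a mean of 5 CPM or more in 1 group and libraries that do not overlap, up to 2 risers and 2 fallers of each list (mean of 1 CPM or more in a group), and genes at 0 counts in 1 group with at least 30 in the other. Other list members in the text were picked with their values in view. Promoters are from RefSeq.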

Additional observations from a re-analysis of the deposited data

Results flagged for a closer look

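In 36 named genes the response to STAT3 differed between the lines by a test of the difference itself, the interaction of line and vector in edgeR's quasi-likelihood fit of 18 libraries (adjusted p under 0.05, size at least 1). Values are HPCLSK minus HPC7 differences of log2 fold changes. Most of these genes were named for their change in HPCLSK, which is part of the difference, so their number does not measure how often the lines differ. Line cannot be told apart from sequencing lane or from the size of the Stat3 rise, and each group is 3 libraries of 1 line.

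Among genes of antigen presentation and interferon response the difference was 9.13 for Nlrc5, 2.42 for Slfn2, 1.60 for Lgals3bp and -1.61 for H2-DMa. Among myeloid and inflammatory genes it was 6.14 for S100a8, 3.17 for Il6st, 2.72 for Ccl3, 2.71 for Ccl6, 2.70 for Cxcr2 and 1.75 for Lyz2. Among cytokine targets it was -1.39 for Stat3 itself, 1.41 for Socs3, 2.85 for Bcl3, 1.28 for Pim1, -1.42 for Cish, 3.11 for Vegfa, 2.26 for Fosb and 1.36 for Fos. Among genes of other blood lineages and of stem cells it was 2.03 for Hoxb4, 1.49 for Id2, 1.21 for Lax1, -1.68 for Cd79b, -1.93 for Itga2b, -2.56 for Car2 and -2.63 for Selp. Among the genes with the largest changes it was 7.55 for Uty, 4.43 for Dmrta2, 4.30 for Fzd2, 4.23 for Maged1, -3.54 for Plpp2, -3.81 for Itga9 and -6.53 for Pik3r6. For the remaining genes it was 1.69 for Hist1h4i, 1.17 for Bmf, -1.12 for Cdkn2c and -3.41 for Dusp4.

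The call of S100a8 was lost without HPC7 empty vector library 2 (5.93, adjusted p = 0.0637). S100a8 stood at 0.0428 ± 0.0524 CPM with STAT3 and 0.394 ± 0.107 CPM with empty vector in HPC7. Other genes were also low in HPC7, with STAT3 and with empty vector in turn. Vegfa stood at 0.0837 ± 0.0445 and 0.504 ± 0.0862 CPM, Slfn2 at 0.146 ± 0.0609 and 0.364 ± 0.120 CPM, and Ccl6 at 0.177 ± 0.0720 and 0.487 ± 0.337 CPM. In these HPC7 libraries, 3 counts correspond to 0.0807 to 0.130 CPM. The call of Slfn2 was lost in 6 settings that left out 1 library each, with values from 2.11 to 2.71.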

How the results depend on the processing

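No call of the comparison turned its direction in any alternative run. With at least 5 CPM required in 3 libraries, 10022 genes were tested and 227 rose and 116 fell at least 2-fold, fewer genes tested being part of that alternative. Tested against a fold of 1.2 (glmTreat), 768 genes passed, 449 up and 319 down. With 1 library left out, 1056 to 1432 genes were called, 602 to 824 up and 454 to 608 down, with 294 to 350 up and 186 to 225 down at least 2-fold. The lowest counts were 1056 without STAT3 library 1 and 1129 without empty vector library 3. Each of these fits held 1 library fewer than the main fit, and what part this had in the counts was not tested. The line difference was called for 1050 to 1132 genes with 1 library left out. DESeq2 called 1855 genes, a fit of only the 6 libraries 2191, a fit of all 18 libraries 2491, no count filter 2324 and other scalings 1762 and 1790, within 1.5 times of 1766. Without empty vector library 1 alone, 1262 genes were called. Without that library and Y640F library 1, an alternative chosen after seeing the data, 2403 genes were called, and 1685 of the 1766 kept their call.

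No pairing by replicate number was seen: the deviations of same-numbered STAT3 and empty vector libraries correlated at -0.04, 0.09 and 0.04. Those of differently numbered libraries correlated at -0.14 to 0.08. Y640F libraries were not in this check, and whether same-numbered libraries share a batch cannot be told from it. With the replicate block, 1415 genes were called, 796 up and 619 down, of which 340 up and 208 down at least 2-fold, and 1370 of the 1766 kept their call; the line difference was called for 1128. Under the block the calls of Socs3 and Bcl3 were lost (adjusted p = 0.0802 and 0.0689). Depth limits genes near 1 CPM, where 31 calls stood under 1 CPM in both groups.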
